A study of Rattus norvegicus with 2 samples.

Results

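Acute phase proteins are plasma proteins whose output by the liver changes during injury or inflammation. Interleukin-1 and interleukin-6 type cytokines drive this response in hepatocytes: IL-6 type ligands signal through the shared receptor chain gp130 and JAK kinases to the transcription factor STAT3, the C/EBP factors beta and delta act on the same promoters, and SOCS3 feeds back to stop the signal. The group described here holds 10 genes, chosen by name: the interleukin-1 receptor antagonist Il1rn, the transcription factors Cebpb, Cebpd and Stat3, the feedback inhibitor Socs3, and the plasma proteins Orm1, A2m, Hp, Saa4 and Lbp. All 10 were among the 18195 genes tested. They were read by 13 distinct probes, 12 of which passed the filter on dim probes, in 31 spots per array.

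Wistar rats of 7 weeks (spelled Wister in the labels) received either a diet lacking choline or a control diet for 10 days, and total liver RNA of both diets was hybridised together to each of 2 two-colour arrays. Choline-deficient RNA carried Cy5 on array 1 and Cy3 on array 2, with control RNA in the other dye. A title mentions 4 rats on the deficient diet, but no label ties rats or extracts to an array. The p-values therefore rest on how far the arrays differ, and that difference may be technical. Values below are log2 ratios of choline-deficient over control after background correction and loess normalization unless a sentence says otherwise, and a mean ± SD is over n = 2 arrays.

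No spot was saturated, and between 53.5% and 63.2% of the 43379 gene spots of an array were well above background in a dye. All 8 hepatocyte markers, among them Alb, Ttr and Apoa1, passed the filter, with a median log2 intensity of 15.72 against 8.40 over all genes. At a Benjamini-Hochberg adjusted p under 0.05 in limma, 8.62% of all genes tested were called, 4.37% higher and 4.25% lower in choline-deficient liver. Called genes with 1 sign on both arrays made up 8.58% of those tested, and 56.4% of all genes had the same sign on both arrays irrespective of the test. Each gene has 1 residual degree of freedom of its own and borrows 63.0 from the other genes, so a gene with opposite signs on the arrays can still pass.

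Il1rn rose by 1.81-fold, Cebpd by 1.71-fold and Orm1 by 1.42-fold in choline-deficient liver, and Saa4 fell by 0.60 on the log2 scale (n = 2 arrays). Hp passed the test with opposite signs on the arrays, and Cebpb, Stat3, Socs3, A2m and Lbp did not pass. Of the 10 genes, 5 (50%) were thus past the threshold against 8.62% of all genes, and 4 of them had the same sign on both arrays. The genes were picked with earlier results of these data known, so that share is a description. Their median log2 ratio was 0.04, against 0.00 over all genes tested. The calls of Il1rn, Cebpd, Orm1 and Saa4 were lost under 2 of the 7 other settings, while their mean ratios kept their sign. With the deposited log ratio the limma adjusted p was 0.233 to 0.385 and both arrays kept the sign. When loess was replaced by median centring, the adjusted p was 1.00 for each, and Cebpd (1.95 and -0.01), Orm1 (1.46 and -0.07) and Saa4 (1.17 and -2.05) had opposite signs on arrays 1 and 2. Less RNA per cell and fewer cells of a type cannot be told apart in whole liver.

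**Figure D1:**
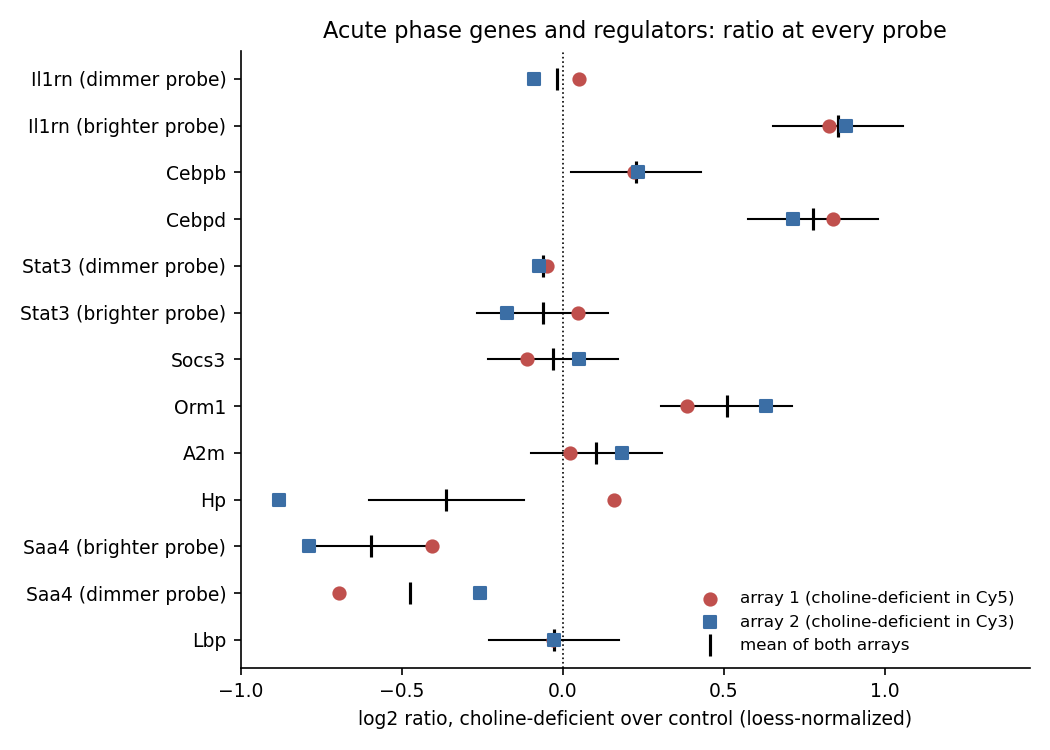
Log2 ratio of choline-deficient over control liver (horizontal axis) at each of the 13 probes of the 10 genes, with array 1 as circles, array 2 as squares and their mean as a tick; black bars are 95% intervals from limma for the probe that stands for its gene. Il1rn (brighter probe), Cebpd and Orm1 lie above 0 and both Saa4 probes below 0 on both arrays, while the points of Hp, at 0.16 and -0.88, lie on either side of 0.

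Il1rn encodes the secreted antagonist that occupies the interleukin-1 receptor without signalling, and hepatocytes, macrophages and neutrophils can all make it. Its 2 probes are shown first because they differed in brightness and in outcome. The first 30 of the 60 bases of each, as the array files give them, are:
Il1rn brighter probe: ccagagtatgtgttatttgtgctcatggaa
Il1rn dimmer probe: tcattgctgggtacttacaaggaccaaata
The brighter probe lies at chr3:2613130-2613189 on the plus strand of rat build rn4. The dimmer one spans 1035 bases of the genome, chr3:2609497-2610531, more than its own length.

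At the brighter Il1rn probe the raw mean signal on array 1 was 2623 in choline-deficient RNA (Cy5) and 663 in control RNA (Cy3). On array 2 it was 1400 in choline-deficient RNA (Cy3) and 1416 in control RNA (Cy5). After normalization the log2 levels were 10.86 and 10.85 in choline-deficient liver and 10.03 and 9.97 in control liver on arrays 1 and 2. The diets did not overlap, and the arrays lay closer together than the diets. How many of all genes show such a separation was not counted. Cebpb did not overlap either, at 9.68 and 9.65 in choline-deficient and 9.46 and 9.41 in control liver. Nor did A2m, at 11.11 and 11.15 against 11.09 and 10.96. Neither gene passed the test, so the separation alone sets no gene apart. At the brighter Il1rn probe the log2 ratio was 0.83 on array 1 and 0.88 on array 2 (0.85 ± 0.04, limma adjusted p = 8.65e-10), which ranked 78 from the highest among all genes tested. The dimmer probe had mean signals between 109 and 130 in both dyes, over a background of 42.5 to 45. It was well above background only in Cy5 and so was not tested. Its log2 ratios were 0.05 and -0.09 here, and 0.41 and -0.44 in the authors' deposited log ratio, so it gave no direction on either scale.

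Cells other than hepatocytes were followed through their markers beside Il1rn. In the neutrophil list and in the macrophage list 20% of the genes tested were past the threshold, against 8.62% of all genes. Of 13 neutrophil markers on the array, 5 were tested and 1 rose, the calprotectin subunit S100a8 (0.32 ± 0.16; limma adjusted p = 0.0543 in the fit over every kept probe). The other 8, among them Csf3r, Cxcr2 and Mmp9, were not well above background in either diet on either array. The summed normalized signal of the 5 markers was 1134 to 1141 in choline-deficient and 1039 to 1044 in control liver. Of 15 macrophage markers, the scavenger receptor Marco (0.91 ± 0.13) and the lysozyme Lyz2 (0.69 ± 0.24) rose and the lipopolysaccharide co-receptor Cd14 fell (-0.41 ± 0.01). The 12 that did not pass ran from -0.29 (Clec4f) to 0.16 (Cd68), and the list median was -0.06. Their summed signal was 48437 to 51502 in choline-deficient and 52796 to 56369 in control liver. The part of these cells in the change of Il1rn was not tested.

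Cebpd and Cebpb encode the C/EBP factors that are induced in hepatocytes in the acute phase. The file gives no position in rn4 for the Cebpd probe, so its first 30 of 60 bases identify it:
Cebpd: gagcagacgccgcccgaattgctacagttt
On array 1 its raw mean signal was 4631 in choline-deficient RNA (Cy5) against 1116 in control RNA (Cy3). Array 2 read 2123 for choline-deficient RNA, now in Cy3, and 2504 for control RNA. Normalized log2 levels were 11.65 and 11.47 in choline-deficient against 10.81 and 10.76 in control liver. The diets were again apart on both arrays. The log2 ratio was 0.84 on array 1 and 0.72 on array 2 (0.78 ± 0.09, limma adjusted p = 1.55e-08), rank 95 from the highest.

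Cebpb was read by 1 probe at chr3:158827280-158827339, spotted repeatedly, with 9 unflagged spots on each array. Its log2 ratio was 0.22 on array 1, where single spots ran from 0.14 to 0.31, and 0.23 on array 2, where they ran from 0.21 to 0.27. After loess every one of these spots was higher in choline-deficient RNA, and the mean differed between the arrays by 0.01. In raw mean signal choline-deficient RNA was higher on array 1 (1113 against 456) and lower on array 2 (623 against 921). With median centring the log2 ratios were 1.13 and -0.34, of opposite sign. The average after loess was 0.23 ± 0.01, or 1.17-fold (95% interval 0.03 to 0.43). The unadjusted p in limma was 0.0281 and the adjusted p 0.196, so Cebpb did not pass over all genes. Spots of 1 array share the RNA and the dye and are no replicates of the diet.

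Stat3, the factor through which IL-6 type cytokines act, did not pass. Its brighter probe, chr10:89821145-89821204 on the minus strand, gave 0.05 on array 1 and -0.17 on array 2 over 10 spots each, with spots from -0.05 to 0.15 and from -0.21 to -0.13. The arrays thus disagreed in sign by more than the spots of either array spread (SD over spots 0.06 on array 1 and 0.03 on array 2). The mean was -0.06 ± 0.16 (95% interval -0.27 to 0.14, limma adjusted p = 0.893). The dimmer Stat3 probe, chr10:89823819-89824169, was at -0.05 and -0.07. Socs3, the inhibitor that STAT3 induces, was dim, with mean signals of 210 and 146 in choline-deficient and 158 and 192 in control RNA. Its log2 ratios were -0.11 and 0.05 (-0.03 ± 0.11, 95% interval -0.23 to 0.17, adjusted p = 0.963). The intervals of both genes end below the mean ratios of Il1rn and Cebpd. They rest mostly on spread borrowed from all genes, which may be technical.

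**Figure D2:**
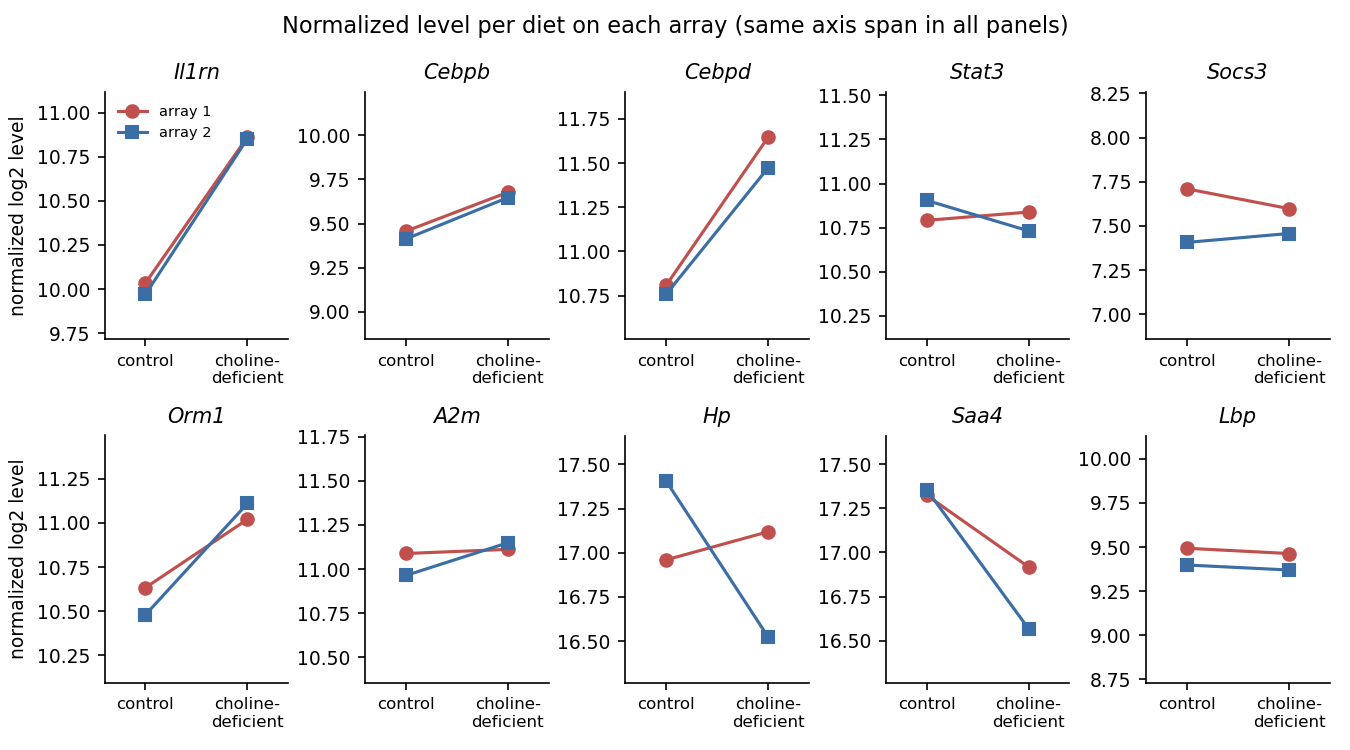
Normalized log2 level (vertical axis, the same span in each panel) in control and choline-deficient liver for the probe that stands for each of the 10 genes, with 1 line per array (circles, array 1; squares, array 2). Lines of Il1rn, Cebpd, Cebpb and Orm1 slope up on both arrays and those of Saa4 slope down, while the lines of Hp cross.

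Orm1 encodes orosomucoid (alpha-1-acid glycoprotein), a major acute phase protein of the rat whose gene is a classic target of C/EBP factors and glucocorticoids. Its probe lies at chr5:80326525-80326584 on the plus strand of rn4, and its first 30 of 60 bases are:
Orm1: gaaaatctttgcccatttgatagtgctgaa
Choline-deficient RNA gave a raw mean signal of 2960 on array 1 (Cy5) and 1655 on array 2 (Cy3), and control RNA gave 997 (Cy3) and 2040 (Cy5). Normalized log2 levels were 11.02 and 11.11 in choline-deficient against 10.63 and 10.48 in control liver. The diets did not overlap. The log2 ratio was 0.39 on array 1 and 0.63 on array 2 (0.51 ± 0.17, limma adjusted p = 0.000193), rank 269 from the highest.

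Promoters from RefSeq (assembly GRCr8, 250 bases before to 50 after the gene's start) were matched for 5 of the 10 genes: Il1rn, Cebpb, Stat3, Socs3 and Orm1. The C/EBP motif TTGCNNAA, searched on both strands, was in 10.6% of the 33469 promoters of that length and in 1 of the 5, that of Orm1. There it stands from 123 to 116 bases before the start, on the minus strand. Whether Cebpd acts on Orm1 was not tested. The 250 bases before the start of Orm1, chr5:81788259-81788508 of GRCr8 on the plus strand, are shown because they hold the match, which is in capitals:
Orm1 promoter: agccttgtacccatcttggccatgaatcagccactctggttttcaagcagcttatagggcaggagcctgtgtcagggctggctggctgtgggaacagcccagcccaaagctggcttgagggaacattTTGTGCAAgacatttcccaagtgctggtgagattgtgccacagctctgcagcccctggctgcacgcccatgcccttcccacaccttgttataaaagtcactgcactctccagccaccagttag
A match to these letters is a description and not a measured binding site. The STAT motif TTCNNNGAA (in 8.87% of all promoters), its narrower form TTCNNGGAA (4.94%, each instance also one of the former), the core CTGGGAA of the second type of IL-6 response element (11.3%) and the glucocorticoid receptor half-site TGTTCT (20.7%) had no match in the 5 windows. Exact forms of the NF-kB site had none either.

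A2m encodes alpha-2-macroglobulin, a protease inhibitor that is the best known strong acute phase reactant of the rat. Its signals were moderate, 3181 and 1701 in choline-deficient and 1373 and 2885 in control RNA on arrays 1 and 2. The log2 ratio was 0.02 on array 1 and 0.19 on array 2 (0.10 ± 0.11, 95% interval -0.10 to 0.31, limma adjusted p = 0.751), at a probe on chr4:158153318-158153377. The upper end of that interval, which rests on the same borrowed spread, is below the mean ratio of Il1rn or Cebpd. Lbp, which encodes the lipopolysaccharide-binding protein, stood at -0.03 on both arrays (95% interval -0.23 to 0.17, adjusted p = 0.966), at chr3:149043196-149043255.

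Saa4 encodes a serum amyloid A that is made constitutively and carried on high density lipoprotein. It had 2 probes, both kept, and they are shown because they gave the same direction at different brightness:
Saa4 brighter probe: acttttagagtttggcatactttgctatct
Saa4 dimmer probe: tgggacttgtgcagagcctatcgggacaac
The brighter probe, chr1:97278453-97278512 on the minus strand of rn4, had raw mean signals of 209150 and 61002 in choline-deficient and of 88922 and 296387 in control RNA on arrays 1 and 2. Normalized log2 levels were 16.92 and 16.57 in choline-deficient against 17.32 and 17.36 in control liver, with no overlap. The log2 ratio was -0.41 on array 1 and -0.79 on array 2 (-0.60 ± 0.27, limma adjusted p = 1.47e-05), rank 138 from the lowest. The dimmer probe, chr1:97280209-97280268, with signals of 12524 and 6026 in choline-deficient and 7997 and 15843 in control RNA, gave -0.69 and -0.26 (-0.48 ± 0.31). In a fit over every kept probe, which called 7.17% of 22364 probes, the brighter Saa4 probe had an adjusted p of 0.000446 and the dimmer one of 0.00524.

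Hp encodes haptoglobin, which binds free haemoglobin. Its probe, chr19:39443329-39443388 on the minus strand of rn4, is among the brightest on the array, and its first 30 of 60 bases are:
Hp: tacagcccatcttgaataagcataccttct
On array 1 choline-deficient RNA read 240605 in Cy5 and control RNA 69407 in Cy3. With the dyes exchanged on array 2, choline-deficient RNA read 59039 and control RNA 306436. Cy5 thus had the higher raw signal on both arrays, as it had at every other probe of the group. The log2 ratio was 0.16 on array 1 and -0.88 on array 2 (-0.36 ± 0.74, limma adjusted p = 0.0451), and the normalized levels of the diets overlapped. The call was lost under all 7 other settings tried, with adjusted p-values from 0.0778 to 1.00, so no direction is drawn for Hp.

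After loess the arrays still differed at the brightest probes, where Hp and Saa4 lie. Among 41 genes outside the group within 0.5 log2 units of the intensity of Hp, a window set after the data were seen, the ratio on array 1 exceeded that on array 2 by a median of 0.61. For Hp that gap was 1.04, larger than in 85.4% of those genes. For the brighter Saa4 probe it was 0.38, against a median of 0.63 among 38 genes of like intensity, and for the dimmer Saa4 probe it was -0.44, with both arrays below 0 at either probe. Near Il1rn, Cebpd and Orm1 the median gap of genes of like intensity was 0.04 to 0.06, against gaps of -0.05, 0.12 and -0.24 for these genes. The median mean ratio of the genes as bright as Saa4 was -0.08. Each array had its own dye orientation and may have held its own RNA, so dye and array cannot be told apart in these gaps.

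**Figure D3:**
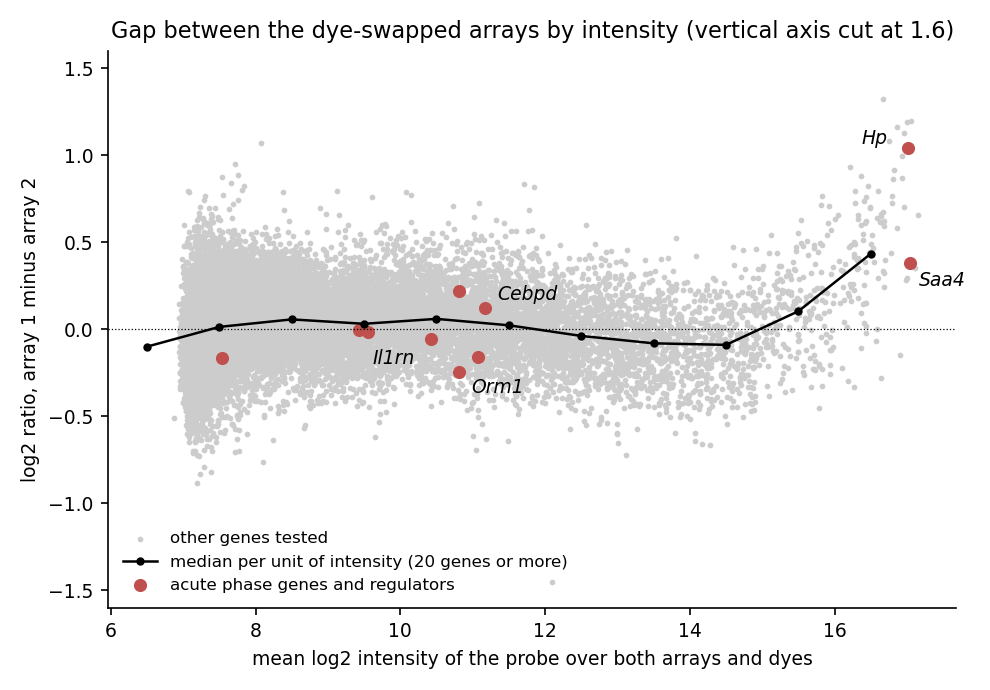
Log2 ratio on array 1 minus that on array 2 (vertical axis) against the mean log2 intensity of the probe (horizontal axis) for all genes tested in grey and the 10 genes in red; the black line joins medians per unit of intensity, and 2 genes beyond 1.6 are not drawn. The grey cloud turns upward above an intensity of about 15, where Hp (1.04) and Saa4 (0.38) lie, while the gaps of the other 8 genes lie between -0.24 and 0.22.

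**Figure D4:**
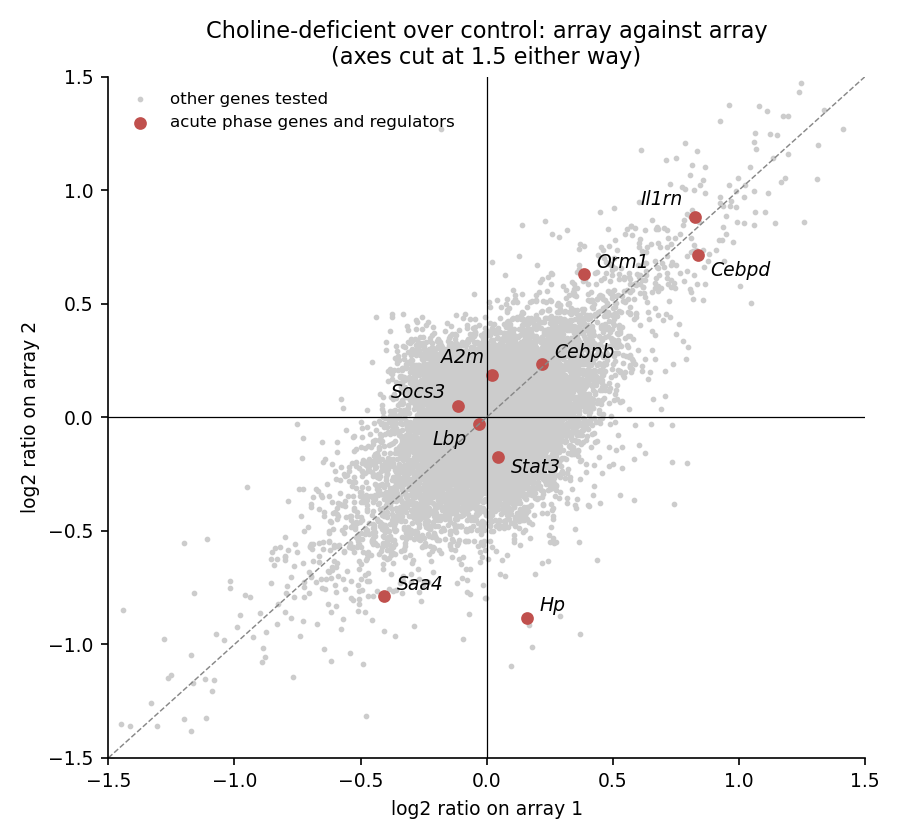
Log2 ratio on array 2 (vertical axis) against that on array 1 (horizontal axis) for all genes tested (grey) and the 10 named genes (red); 20 genes beyond 1.5 on either axis are not drawn and the dashed line marks equal ratios. Il1rn, Cebpd and Orm1 lie in the upper right, Saa4 in the lower left and Hp far below the dashed line.

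The other genes of the pathway were grouped by function into lists. These were chosen with earlier results of these data known, so their shares past the threshold are descriptions. With median centring and with the deposited log ratio no gene of any list was called, in either direction. Losses of named genes under the other settings are given with the gene or its list. Of 31 other positive acute phase proteins tested, 2 rose, 11 fell and 18 did not pass, with a median of -0.27; 41.9% were thus past the threshold, against 8.62% of all genes. With an intensity trend in the fit 7 were called lower. The list also holds the receptor Il1r1, which did not pass and is counted again among the receptors. Cd14, called lower in this list, is the same gene given above as a macrophage marker. Lcn2, Alb, Apoa1 and Tat likewise stand both in a pathway list and in a marker list. The fibrinogen chains fell together: Fgb (-0.67 ± 0.31, limma adjusted p = 1.24e-06), Fga (-0.53 ± 0.27) and Fgg (-0.45 ± 0.33), each below 0 on both arrays. The call of Fgg was among those lost with the trend (adjusted p = 0.125). The kininogen Kng1l1 (-0.55 ± 0.10), whose probe may also read its near-identical paralogs, the complement inhibitor C4bpa (-0.59 ± 0.12) and the copper carrier ceruloplasmin, Cp (-0.42 ± 0.03), fell as well. The genes that rose were Spp1 (1.52 ± 0.15), which encodes the secreted matrix protein osteopontin, and the metalloproteinase inhibitor Timp1 (0.65 ± 0.11). Serpina3n was at -0.18 ± 0.12 and the iron hormone gene Hamp at 0.15 ± 0.50, with opposite signs on the arrays.

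Negative acute phase proteins, whose output classically drops in inflammation, had a like median. Of 19 tested, 1 rose, 8 were called lower, 1 of them (Ambp) with opposite signs on the arrays, and 10 did not pass, with a median of -0.29; 47.4% were past the threshold. The thyroxine-binding globulin Serpina7 (-0.55 ± 0.01), the growth factor Igf1 (-0.47 ± 0.03), the vitamin D-binding protein Gc (-0.41 ± 0.07) and Apoa4 (-0.42 ± 0.49) fell, and albumin, Alb, fell by 0.31 on the log2 scale (SD 0.23). With an intensity trend in the fit 1 gene of the list, Serpina7, was still called lower. With an offset of 16 there were 3, Serpina7, Igf1 and Gc. Apoa4, at -0.08 on array 1 and -0.77 on array 2, was lost in both (limma adjusted p = 0.155 with the trend and 0.0697 with the offset). The calls of Alb and Ambp were lost under all 6 other settings tried for the lists. Apoa1 rose (0.40 ± 0.24; adjusted p = 0.148 with the trend), Ttr was at -0.06 ± 0.45, and Ambp was at 0.18 on array 1 and -1.01 on array 2. Both lists are bright, with median log2 intensities of 14.67 and 16.41 against 8.40 over all genes. Array 1 put their medians at -0.13 and -0.14, and array 2 put them at -0.40 and -0.46. Of the 666 genes of log2 intensity of at least 14, a limit set after the data were seen, 4.20% were called higher and 17.9% lower. Both medians were also below 0 in the settings without calls, with median centring (-0.12 and -0.13) and with the deposited log ratio (-0.28 for each). Over all genes the median was 0.08 with median centring and -0.02 with the deposited log ratio. The part of the dye and of brightness in the falls of these lists was not tested.

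**Figure D5:**
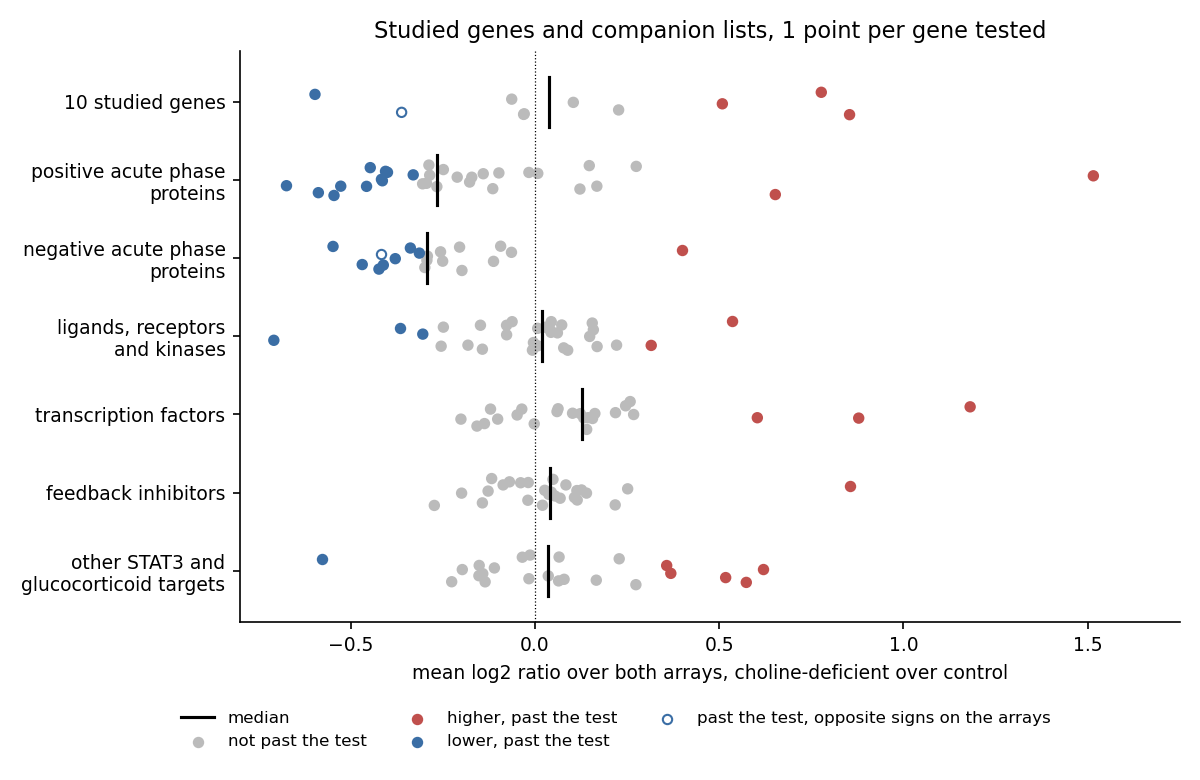
Mean log2 ratio over both arrays (horizontal axis) of the 10 genes and of the genes tested in 6 lists, 1 point per gene, with vertical bars at each median; red points rose, blue points fell, open points passed with opposite signs on the arrays, and grey points did not pass. The medians of the positive and negative acute phase proteins lie at -0.27 and -0.29, and those of the other lists between 0.02 and 0.13; Il1rn appears both in the top row and among the feedback inhibitors.

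Among ligands, receptors and kinases of IL-6 type and IL-1 signalling, 2 of 30 rose, 3 fell and 25 did not pass, with a median of 0.02. Together 16.7% were past the threshold, where 4.37% of all genes were higher and 4.25% lower. The cytokine Il1b rose on both arrays by 0.54 (0.54 ± 0.00, limma adjusted p = 6.68e-05), and Clcf1, an IL-6 type cytokine, rose by 0.32 ± 0.16 (adjusted p = 0.0575 in the fit over every kept probe). The receptor accessory chain Il1rap, which the interleukin-1 receptor needs to signal, fell (-0.71 ± 0.08, adjusted p = 1.82e-07), and the receptor Il1r1 was at -0.25 ± 0.22 without passing. The gp130 gene Il6st (-0.36 ± 0.11) and Il11ra1 (-0.30 ± 0.06) fell, though with an offset of 16 neither passed (limma adjusted p = 0.0627 and 0.117). Il6st was past in 2 of 7 settings: it was also lost with the trend (adjusted p = 0.0692) and stood at -0.09 (adjusted p = 0.793) in the mean of its kept probes, so its probes disagreed. Il11ra1 was also lost in the fit over every kept probe (adjusted p = 0.0612). Neither Il6r (-0.25 ± 0.11) nor Jak1 (-0.15 ± 0.14) nor Jak2 (0.17 ± 0.29) passed. Il6, Tnf and Osmr were not well above background in either diet on either array.

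Of 24 transcription factors of the STAT and C/EBP families and their partners, 3 rose, none fell and 21 did not pass, with a median of 0.13, so that 12.5% were past the threshold against 8.62% of all genes. Those that rose were the AP-1 factors Jun (1.18 ± 0.18, limma adjusted p = 1.25e-14) and Jund (0.88 ± 0.21) and the hepatocyte factor Onecut1 (0.60 ± 0.14). Cebpa (0.22 ± 0.06), Stat5b (-0.12 ± 0.05) and the glucocorticoid receptor Nr3c1 (-0.14 ± 0.06) did not pass. Of 26 feedback inhibitors, Il1rn was the 1 gene that rose and none fell, and the median was 0.04. Thus 3.85% were past the threshold, below the 8.62% of all genes. The SOCS family members Socs2 (0.02 ± 0.12) and Cish (-0.12 ± 0.16) did not pass, as Socs3 did not. Of 23 further target genes of STAT3 or glucocorticoids, 5 rose and 1 fell (26.1% past the threshold), with a median of 0.04. The transcription factor Zbtb16 (0.62 ± 0.07), the aminotransferase Tat (0.57 ± 0.13), the survivin gene Birc5 (0.52 ± 0.19), Sgk1 (0.37 ± 0.06) and Bcl3 (0.36 ± 0.16; limma adjusted p = 0.0550 with an offset of 16) rose, and the glucose-6-phosphatase G6pc fell (-0.58 ± 0.15).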

How the data were processed

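Each sample is 1 two-colour Agilent array. Agilent Feature Extraction read the images (version 9.5.3.1 per the file headers, 9.5 per the submitters' processing notes), and probe positions are on build rn4. For each dye the deposited files give the mean spot intensity and the median background intensity. They also give a log10 ratio (Cy5 over Cy3) that the authors made, per the file headers, by background subtraction, detrending and lowess dye normalization. The deposited series table equalled that log10 ratio within 1% in 45018 of 45018 rows on both arrays (median 0 in each) and was not used further.

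Mean signals and median backgrounds were corrected with limma 3.58.1 (R 4.3.3), normexp offset 50, and normalized by loess within each array, control spots at weight 0. Flagged spots were left out (174 and 151; 2 of these genes') and spots of a probe averaged. Kept probes had at least 1 diet well above background on array 1 that was so on array 2 too. A gene stands for its brightest kept probe. Ratios, turned for the dye swap, were tested against 0 with lmFit and eBayes, two-sided, Benjamini-Hochberg adjusted over all genes. The procedure was tested on simulated data. Normalized levels come from loess and A-quantile scaling. The number of arrays limits precision.

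The genes and lists were chosen with earlier results of these data known. Named are all 10 genes, up to 6 called genes of each list with the largest mean ratios, and a fixed set of pathway genes (Il6r, Fga, Alb and the like), of which 1 is not reported here; Cd68, Clec4f, Cxcr2, Csf3r and Mmp9 were named after their values were seen. Listed genes were matched by array name, or by current symbol through RefSeq. Alternatives were median centring, an offset of 16, the deposited log ratio, no dim-probe filter, the mean of probes, an intensity trend, each array alone and, added later, a fit over every probe. An annotation of rn4 was not used here, so exons and UTRs are not stated.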

Additional observations from a re-analysis of the deposited data

How the results depend on the processing

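The mean ratios of Il1rn, Cebpd, Orm1 and Saa4 kept their sign in all 8 settings and their call in 6. Median centring in place of loess called 0 of the 10 genes, 0 higher and 0 lower (19 genes in all at an unadjusted limma p under 0.05, 0 of them among the 10), and 0 of the listed pathway genes in either direction. It widened the median gap between the arrays from 0.14 to 1.11, left 1 of 13 probes with the same sign on both arrays (9 with loess), and turned Stat3 to 0.12, Socs3 to 0.068 and Lbp to 0.14. In that setting the median ratio over all genes was itself 0.079, and Socs3 lay below it. The deposited log ratio also called 0 genes in every group (2122 genes at an unadjusted p under 0.05, among them these 4), with adjusted p-values of 0.233, 0.244, 0.385 and 0.309 for Il1rn, Cebpd, Orm1 and Saa4. The genes called lower numbered 1 in place of 2 with an offset of 16, without the filter on dim probes, with the mean of probes, with an intensity trend and with every probe in the fit, since Hp was lost. Listed pathway genes called lower fell from 23 to 15 with the offset of 16 and to 12 with the trend. The cause was not tested. Array 1 alone put Hp at 0.16 and array 2 alone at -0.88. Each array alone has no residual degrees of freedom, so it gave values with no test and no counts of calls. The diets are paired within each array, and the test of these ratios against 0 uses that pairing. With 1 group of arrays no further pairing was possible. Dim spots such as the second Il1rn probe and Socs3 limit what could be seen.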

Other observations

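Markers of the remaining liver cell types were measured beside the acute phase genes. The shares past the threshold were 14.3% of endothelial, 28.6% of stellate cell, 16.7% of lymphocyte, 20% of erythroid and 37.5% of hepatocyte markers. Over all genes tested the share was 8.62%, and each of these lists holds few genes. Of 7 endothelial markers tested, the growth factor receptor Kdr fell (-0.46 ± 0.17, SD, n = 2 arrays) and none rose, with a list median of -0.12. Of 7 stellate cell markers, the collagens Col1a1 (0.53 ± 0.02) and Col3a1 (0.30 ± 0.01) rose, with a median of 0.01. In the mean of its kept probes Col1a1 stood at 0.16 (limma adjusted p = 0.445), and Col3a1 did not pass at the smaller offset, 16 (adjusted p = 0.113), nor in the fit over every kept probe (adjusted p = 0.0610). Among lymphocyte markers (6 tested), the granzyme Gzma fell (-0.32 ± 0.05; limma adjusted p = 0.0790 with an offset of 16), with a median of 0.05. Of 5 erythroid markers, the haemoglobin gene Hbb-b1 fell (-0.44 ± 0.13), with a median of -0.14. Of the 8 hepatocyte markers, Tat and Apoa1 rose and Alb fell, with a median of -0.06; Alb was lost under all 6 other settings and Apoa1 with an intensity trend (adjusted p = 0.148). No marker was called with median centring or with the deposited log ratio.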
